A study of Mus musculus with 4 samples.

Results

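The miR-26 family of the mouse main olfactory epithelium was described from the 5 rows of the authors' deposited miRNA table that carry the name miR-26a or miR-26b, of 1167 rows in all. These are mmu-miR-26a-5p, mmu-miR-26a-1-3p, mmu-miR-26a-2-3p, mmu-miR-26b-5p and mmu-miR-26b-3p, written below without the prefix for mouse and chosen by name and not by value. The libraries were made from small RNA of this tissue, where odours are detected in the nose, taken from C57BL/6 males aged 3 months. There were 2 libraries from wild type mice and 2 from AC3-/- mice, which lack adenylyl cyclase 3, which converts ATP to cAMP when odour receptors of sensory neurons are activated. The labels give no other allele or treatment, do not say how the AC3 allele was made, and do not name the animal behind each library. The spread that p-values are measured against may therefore be technical. The tissue is a mixture of cell types, and fewer cells of a type cannot be told apart from less miRNA per cell.

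A miRNA is cut from a hairpin in a longer transcript. One arm (here 5p, from the 5′ side) is loaded into an Argonaute protein and guides it to mRNAs that match its seed, bases 2 to 8 of the miRNA, while the other arm (3p) is mostly degraded. The 3 miR-26 hairpins lie in introns of the genes Ctdspl, Ctdsp2 and Ctdsp1, which encode small phosphatases that act on the tail of RNA polymerase II. These phosphatases are known as partners of REST, the repressor that keeps neuronal genes silent in other cells and in progenitors, and miR-26 is known to repress its own host Ctdsp2 while neural progenitors differentiate. miR-26 is also known to target Ezh2, which encodes a histone methyltransferase, and is made in many tissues.

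The mature sequences are shown because they decide which rows can be told apart and which share targets. They were taken from RefSeq (GRCm38.p6) and are written 5′ to 3′ with the seed in capitals.
miR-26a-5p: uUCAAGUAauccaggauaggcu
miR-26b-5p: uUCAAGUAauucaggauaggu
miR-26a-1-3p: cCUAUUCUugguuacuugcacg
miR-26a-2-3p: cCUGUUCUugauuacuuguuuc
miR-26b-3p: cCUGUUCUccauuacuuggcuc

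miR-26a-5p and miR-26b-5p share the seed UCAAGUA, and no other of the 1679 mature mouse miRNA names in the RefSeq table has it. Counted from 1 at the 5′ end of miR-26a-5p, miR-26b-5p carries the substitutions C11U and C21U, both outside the seed, and is 21 bases long against 22. The 3p arms are less alike. miR-26a-2-3p and miR-26b-3p share the seed CUGUUCU, which 4 mature names hold in all, and differ at 4 other positions. miR-26a-1-3p differs from miR-26a-2-3p at 6 positions, 1 of them, G4A, in the seed, which it shares with no other name.

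The hairpins are shown with the mature arms in capitals, because miR-26a-5p is the same in 2 of them and only the 3p arms tell those 2 genes apart.
Mir26a-1 (chr9:119031796-119031885, plus strand, GRCm38): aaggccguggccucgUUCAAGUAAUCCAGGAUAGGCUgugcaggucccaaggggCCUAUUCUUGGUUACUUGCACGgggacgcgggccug
Mir26a-2 (chr10:126995530-126995613, plus strand, GRCm38): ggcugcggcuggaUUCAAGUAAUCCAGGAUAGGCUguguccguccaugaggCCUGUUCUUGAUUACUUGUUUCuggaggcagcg
Mir26b (chr1:74394310-74394394, plus strand, GRCm38): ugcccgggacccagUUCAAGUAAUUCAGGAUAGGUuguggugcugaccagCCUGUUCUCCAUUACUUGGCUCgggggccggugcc

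Mir26a-1 lies in intron 5 of the 8-exon transcript of Ctdspl on chromosome 9, an intron of 3283 bases in a gene of 117546 bases. Mir26a-2 lies in intron 5 of the 8-exon transcript of Ctdsp2 on chromosome 10, an intron of 1946 bases in a gene of 21259 bases. Its last base, 126995613, is also the annotated first base of 2 shorter Ctdsp2 transcripts, so 1 base of this hairpin falls in an annotated exon. Mir26b lies in intron 4 of the 7-exon transcript of Ctdsp1 on chromosome 1, an intron of 564 bases in a gene of 5777 bases. All 3 hairpins are on the strand of their host. The letters TGACG, the half-site of the cAMP response element, occur on neither strand of the 4 RefSeq windows (250 bases before to 50 after a transcript start) of these 3 hosts, while 20.8% of 32851 such windows of all genes hold them. The full element TGACGTCA, which contains the half-site on both strands, was found in 1.79% of all windows. The absence of these letters from the windows says nothing of other sites.

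**Figure D1:**
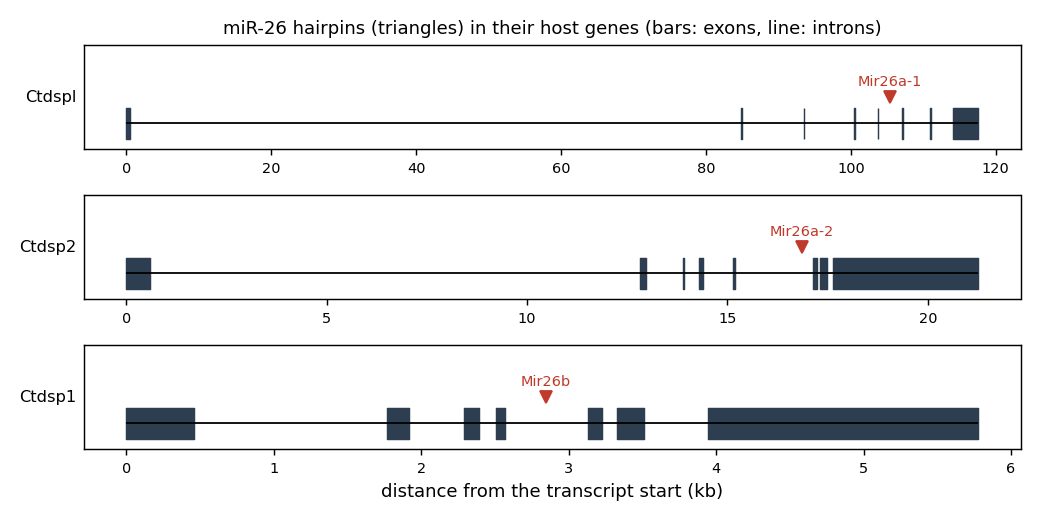
Exons (bars) and introns (line) of the longest protein-coding transcript of Ctdspl, Ctdsp2 and Ctdsp1, with the distance from the transcript start in kb, each gene on its own scale. The triangles mark the miR-26 hairpins, which lie in introns 5, 5 and 4.

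The values are mean normalised read counts, the number of reads of a miRNA divided by a factor for the size of its library and averaged by the authors over the 2 libraries of a genotype. The column sums of these means were 8739148 for AC3-/- and 12320877 for wild type. For most rows the reads of the single libraries, here called a and b, could be worked back from the mean. The wild-type libraries differed from each other more than the AC3-/- libraries did. Over the miRNAs with a mean of at least 10 and reads in both libraries, 121 of 448 lay at least 2-fold apart in wild type. Between the AC3-/- libraries it was 27 of 448. These counts do not say which wild-type library is the unusual one. The markers of some cell types also differed between the libraries of a genotype. The summed value of 5 leukocyte miRNAs in wild type was 16553 (library a) and 5197 (b), against 14116 and 17682 in AC3-/-. That of the 5 multiciliated-cell miRNAs with library values, of 6 listed, was 30579 and 5971, against 13839 and 26206. The member without them, miR-34c-5p, made up most of the deposited sum of this list, 230226 of 250249 for AC3-/- and 225941 of 244216 for wild type. The library values of this list thus cover a small part of its reads. The 3 red blood cell miRNAs summed to 6068 and 4644 in AC3-/- and 5519 and 3081 in wild type. The deposited means of the 6 sensory-epithelium miRNAs summed to 1636943 for AC3-/- and 5090858 for wild type, with each of the 6 lower in AC3-/-. The member of that list with library values, miR-141-3p, had 18849 and 22274 in AC3-/- and 17615 and 41585 in wild type, so wild-type library a lay below both AC3-/- libraries. The deposited means of the 3 miRNAs of endothelium and smooth muscle summed to 631864 and 538630, and the one with library values, miR-145a-5p, had 15308 and 15340 against 13054 and 10532. No marker on these lists was at 0 in either genotype. The part of these cell types in the miR-26 values was not tested.

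The seed family is led by miR-26a-5p, the guide made from both Ctdspl and Ctdsp2. In the authors' deposited table it had a mean of 267932 in AC3-/- and 301196 in wild type, the 10th highest value of the table in each genotype. miR-26b-5p, the guide made from Ctdsp1, had a mean of 33163 in AC3-/-, rank 36, and 34160 in wild type, rank 38, in the authors' deposited table. miR-26a-5p reads outnumbered miR-26b-5p reads 8.08-fold in AC3-/- and 8.82-fold in wild type, and made up 89.0% and 89.8% of the reads with the shared seed. Adaptor ligation and PCR favour some sequences, so such ratios are ratios of reads and not of molecules.

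All 5 rows together held 3.45% of the table total in AC3-/- and 2.72% in wild type. The share was higher in AC3-/- although the summed value was lower, 301304 against 335533, since the table total itself was lower there. With the 10 most abundant other miRNAs left out of the total the shares were 9.19% and 8.62%.

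The 3p arms were scarce. In the authors' deposited table the mean of miR-26a-2-3p was 171.9 (AC3-/-) and 145.6 (wild type), that of miR-26b-3p 30.8 and 27.0, and that of miR-26a-1-3p 7.13 and 4.84. The 3 together made up 0.0696% of the family in AC3-/- and 0.0529% in wild type.

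**Figure D2:**
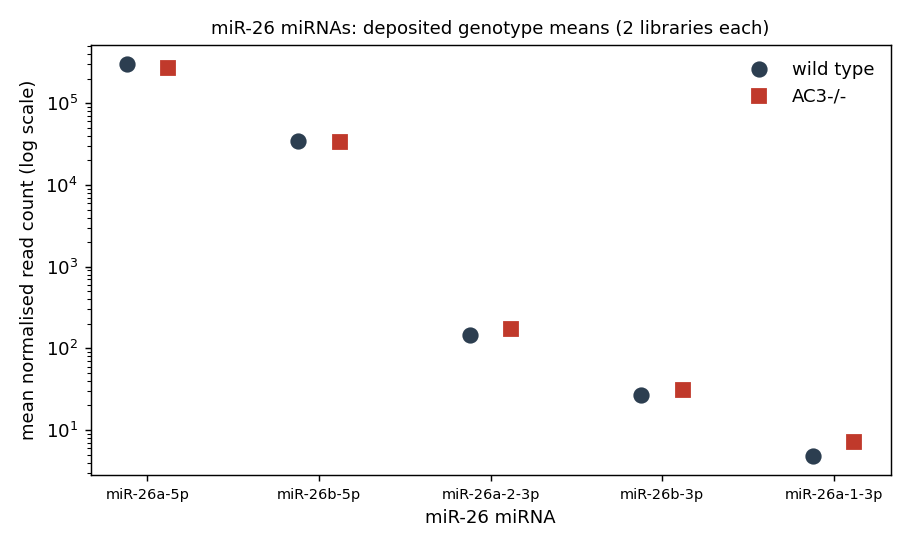
Mean normalised read count (log scale) of each miR-26 miRNA in wild type (circles) and AC3-/- (squares), each the authors' mean of 2 libraries. The symbols of a miRNA lie close together, while the miRNAs span from 4.84 to 301196.

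The miR-26b hairpin gave 1077 reads of its 5p arm for each 3p read in AC3-/- and 1265 in wild type. Among 152 hairpins with both arms named in the table, above 0 in both genotypes, and a mean of at least 100 for the larger arm, the larger arm exceeded the smaller by a median of 40.1-fold in AC3-/- and 42.5-fold in wild type. miR-26b ranked 17 in AC3-/- and 18 in wild type by this measure. The log2 change of its 5p over 3p ratio between genotypes was -0.23, and 49 of the 152 hairpins had a smaller change in size. Over all 152 hairpins the median size of the change was 0.36. For miR-26a, whose 5p arm comes from both hairpins, the 5p reads were 1497 times the summed reads of both 3p arms in AC3-/- and 2002 times in wild type. These ratios rest on few 3p reads and have no test.

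**Figure D3:**
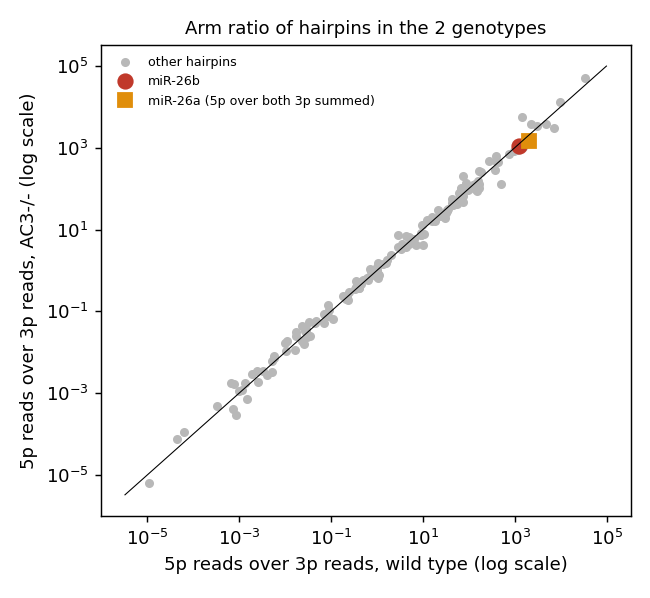
Reads of the 5p arm over reads of the 3p arm in wild type (x, log scale) and AC3-/- (y, log scale) for 152 hairpins, with the line of equal ratios. miR-26b (circle, 1265 and 1077) and miR-26a (square, 2002 and 1497, over both 3p arms summed) lie near the line at its high end.

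The 3p arms also separate the hairpins that make miR-26a-5p. miR-26a-2-3p, the arm from Ctdsp2, had 195 reads in AC3-/- library a, 191 in AC3-/- library b, 120 in wild-type library a and 140 in wild-type library b. miR-26a-1-3p, the arm from Ctdspl, had 8, 8, 8 and 1 reads in the same order, and miR-26b-3p, from Ctdsp1, had 31, 38, 31 and 18. The arm from Ctdsp2 was thus the largest in each library. Its share of the 3p reads of the family was 83.3% in AC3-/- library a (95% exact Clopper-Pearson interval 77.9% to 87.9%), and 80.6% in library b (75.0% to 85.4%). In wild type it was 75.5% in library a (68.0% to 81.9%), and 88.1% in library b (82.0% to 92.7%). The AC3-/- shares lay between those of the wild-type libraries. The intervals cover counting error only, and the share of a 3p arm does not measure how much miR-26a-5p each hairpin gives.

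In the comparison of genotypes, no miR-26 miRNA passed the test. The authors' deposited table gives adjusted p-values over all 1167 rows of between 0.940 and 0.979 for the 5 rows, and each unadjusted p was above 0.05. Of all rows of the table, 0.0857% passed the adjusted p of 0.05 and 3.51% had an unadjusted p under 0.05. The log2 fold change that the authors' deposited table lists for AC3-/- over wild type, which is shrunken toward 0, was -0.15 for miR-26a-5p (p = 0.639) and -0.036 for miR-26b-5p (p = 0.920). For the 3p arms the authors' deposited table lists 0.21 for miR-26a-2-3p, 0.14 for miR-26b-3p and 0.23 for miR-26a-1-3p. The guides thus lay slightly below 0 and the 3p arms slightly above it. The direction of the guides depends on the scaling. Dividing each column by its own sum shifts every log2 ratio up by 0.50. The log2 ratio of the means was then 0.33 for miR-26a-5p and 0.45 for miR-26b-5p, against -0.17 and -0.043 as deposited. The 6 sensory-epithelium miRNAs held 1636943 of the sum of 8739148 in AC3-/- and 5090858 of 12320877 in wild type. With the median of miRNAs with a mean of at least 100 set to 0 instead, miR-26a-5p was at -0.070 and miR-26b-5p at 0.056.

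**Figure D4:**
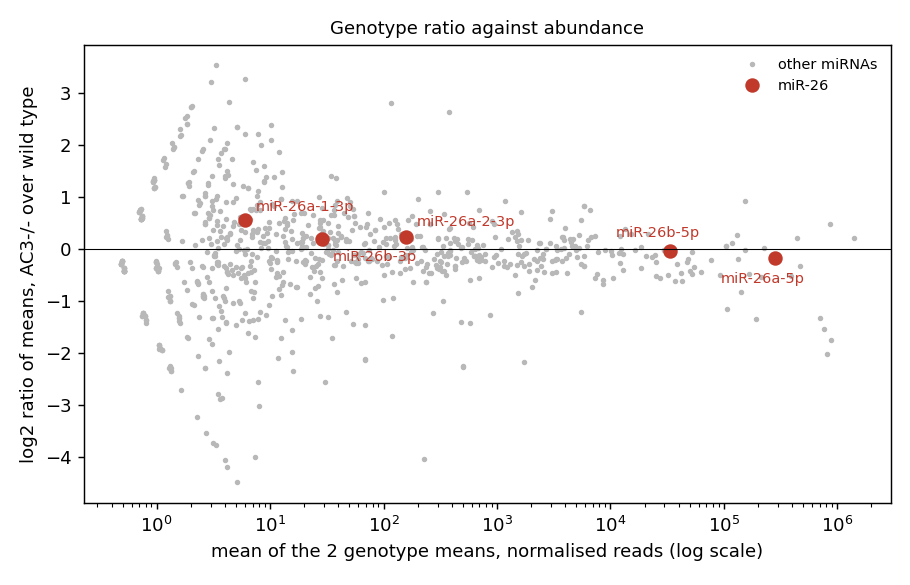
Log2 ratio of the genotype means, AC3-/- over wild type, against the mean of both (log scale) for each miRNA above 0 in both genotypes. The 5 miR-26 miRNAs (circles) lie between -0.17 and 0.56, within the cloud of the other miRNAs (dots).

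Among abundant miRNAs the guides were close to the middle of the distribution. The 296 miRNAs whose mean reached 100 had a median log2 ratio of -0.099 between the genotype means, and a median size of that ratio of 0.24. In size, 93 of the 296 had a smaller ratio than miR-26a-5p, and 27 a smaller one than miR-26b-5p. The 5 miRNAs nearest to miR-26a-5p in abundance had log2 ratios of 0.027 for miR-34c-5p, -0.53 for miR-30d-5p, -0.52 for let-7f-5p, -1.35 for miR-96-5p and 0.22 for miR-143-3p. None of these neighbours passed the adjusted p in the authors' deposited table. Of the 20 most abundant miRNAs, 3 had a smaller ratio in size than miR-26a-5p.

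The libraries of each genotype were compared where their values could be worked back. miR-26a-2-3p had 169.9 (library a) and 173.9 (library b) normalised reads in AC3-/-, against 127.5 (a) and 163.7 (b) in wild type. Both AC3-/- libraries were above both wild-type libraries, as was so for 16.7% of the 449 miRNAs that could be split and whose mean reached 10. The log2 difference by limma was 0.25 ± 0.33 (standard error, n = 2 libraries per genotype), with a 95% interval of -0.59 to 1.09, or 0.664-fold to 2.13-fold, and limma's adjusted p was 0.932.

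miR-26b-3p had 27.0 and 34.6 normalised reads in AC3-/- and 32.9 and 21.0 in wild type, so the genotypes overlapped. The log2 difference by limma was 0.21 ± 0.44 (standard error), with a 95% interval of -0.89 to 1.30, or 0.540-fold to 2.47-fold, and limma's adjusted p was 0.932. Without wild-type library b the log2 difference was -0.10, of the opposite sign. limma called 0 of the 449 miRNAs at an adjusted p of 0.05, or 0% of those tested, while the authors' own comparison calls 1 of 1167. By limma, 16 of the 449 (3.56%) had an unadjusted p under 0.05. Of the family, only miR-26a-2-3p and miR-26b-3p were among the 449. The guides miR-26a-5p and miR-26b-5p could not be split in both genotypes, so limma did not test them. The limma count of 0 was the same without either AC3-/- library, but leaving out wild-type library a gave 63 calls and leaving out wild-type library b gave 2, with no miR-26 miRNA among them. Exact two-sided permutation tests of the library values gave p = 0.333 for miR-26a-2-3p, the smallest that 2 libraries against 2 allow, and p = 0.667 for miR-26b-3p.

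miR-26a-1-3p had 6.97 and 7.28 normalised reads in AC3-/- and 8.50 and 1.17 in wild type, and fell below the mean of 10 that limma was run on. Its higher AC3-/- mean rested on wild-type library b, where it had 1 read, below the 3 reads taken here as the limit of detection. Without that library the log2 ratio of the means was -0.25, against 0.56 with it. The summed values given above for leukocyte miRNAs, red blood cell miRNAs and the multiciliated-cell miRNAs with library values were lowest in that library. So was miR-145a-5p, the only such member of the endothelium and smooth muscle list. miR-141-3p, the only such member of the sensory-epithelium list, was highest there. Whether these values bear on miR-26a-1-3p was not tested.

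miR-26b-5p could be split in wild type only. The value was 42431 normalised reads for wild-type library a against 25888 for b, a 1.64-fold difference between libraries of 1 genotype. The wild-type values of the other arm of this hairpin, miR-26b-3p, were ordered alike, and the 5p over 3p ratio was 1288 in library a and 1230 in library b. In AC3-/- 3 splits of the mean were possible, 58736 and 7590, 34745 and 31581, or 14668 and 51658 in libraries a and b, and none was chosen. The AC3-/- mean of 33163 lay between the wild-type libraries. miR-26a-5p, with 156 possible splits in AC3-/-, has no library values.

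**Figure D5:**
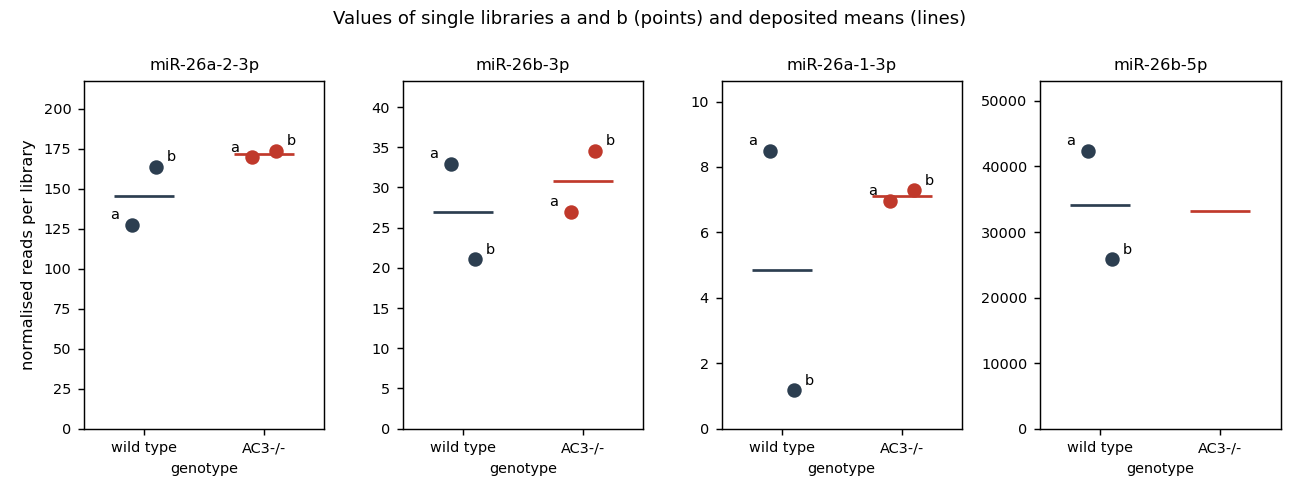
Normalised reads of miR-26 miRNAs in single libraries a and b (points) and the deposited genotype means (lines); each panel has its own axis from 0. The genotypes overlap for miR-26b-3p and miR-26a-1-3p and not for miR-26a-2-3p, and miR-26b-5p has points in wild type only, at 42431 and 25888.

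The miRNAs whose values over the 4 libraries were most like each 3p arm differed between the arms. Likeness was the distance between log2 values centred on each miRNA's own mean. Candidates were the other miRNAs with a mean of at least 100 and values in all 4 libraries, 252 or 253 for each arm. Abundant miRNAs that could not be split, such as miR-26a-5p, could therefore not be neighbours. Nearest to miR-26a-2-3p were miR-181a-2-3p (distance 0.12), miR-125a-5p, miR-16-1-3p, miR-128-3p and miR-532-3p. Nearest to miR-26b-3p were miR-24-2-5p (distance 0.10), miR-3074-2-3p, miR-222-3p, miR-130a-3p and miR-148a-5p. Nearest to miR-26a-1-3p were miR-223-3p (distance 0.38), miR-142a-3p, miR-142b, miR-10a-5p and miR-155-5p. miR-142a-3p and miR-142b have identical values. Those of miR-24-2-5p and miR-3074-2-3p are nearly the same in each library, such as 3795 and 3745 in AC3-/- library a. Neither pair should be read as separate neighbours. Distances over 4 libraries are a description, and that of miR-26a-1-3p rests on 8 reads or fewer per library.

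The family was set beside other miRNAs that lie, on the strand of the gene, in introns of protein-coding genes. With every locus of the mature miRNA required to qualify, 178 miRNAs with a mean of at least 10 did so, among them 4 of the 5 miR-26 rows. The plan asked that no part of the miRNA gene lie in an exon. It was changed to the mature arm only, because 1 base of the Mir26a-2 hairpin lies in an annotated exon. Under the planned rule miR-26a-5p and miR-26a-2-3p would not have qualified. Of the 178, 67 lay above 0 and the median log2 ratio of the means was -0.14, against 218 of 492 and -0.051 for all miRNAs with a mean of at least 10. In the authors' deposited table none of the 178 passed the adjusted p, and 11 (6.18%) had an unadjusted p under 0.05, 3 higher and 8 lower in AC3-/-. Of the 492 it was 29 (5.89%), 11 higher and 18 lower. Over the 165 of the 178 with library values the median was -0.12, and without wild-type library b it was -0.022. The median of all miRNAs was not computed in these settings. Whether this move is particular to intronic miRNAs was thus not tested.

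A short list of miRNAs linked to REST, not a full set, was also examined. Besides miR-26 it holds miR-124, which is known to target Ctdsp1, and miR-9, miR-132 and miR-212, whose genes REST is known to bind. The list was made with 3 miR-26 rows, without miR-26a-1-3p and miR-26a-2-3p. Of its 11 rows 6 lay above 0, with a median log2 ratio of the means of 0.057, and with those 2 rows added it was 8 of 13, with a median of 0.093. Over all rows above 0 in both genotypes 406 of 882 (46.0%) had a ratio above 0, with a median of -0.057. In the comparison of the authors' deposited table, 1 passed the adjusted p, which is also the 1 row that passed of all 1167, miR-124-3p, at 205.6 (AC3-/-) and 29.3 (wild type). Its 5p arm, miR-124-5p, had means of 13.3 and 3.29 and an adjusted p of 0.940 there. The log2 ratio of the means was 0.057 for miR-9-5p and -0.45 for miR-9-3p. It was 0.093 for miR-132-3p, -0.38 for miR-132-5p, 0.70 for miR-212-3p and -0.070 for miR-212-5p, and none of these passed.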

How the data were processed

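The authors deposited 1 table of 1167 miRNAs, made from 4 small RNA libraries. DESeq 1.8.3, Bowtie and GRCm38 are listed, with no role, per the submitters' processing notes. Not given in the sources used here are the counter, miRBase release and filters. The deposited signal is a mean normalised read count per genotype, per the file headers. The deposited log2 fold change is shrunken, at a median of 85.8% of the unshrunken value (rows with a mean of at least 100 and a size above 0.1). The deposited p-value and adjusted p-value are the authors'; the latter equals a Benjamini-Hochberg adjustment over all 1167 rows.

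Each mean is a whole-number combination of the values of 1 read in its 2 libraries, so reads per library were worked back where 1 solution existed, in 1125 AC3-/- and 1134 wild-type rows. The size factors found were 1.15 (AC3-/- a), 1.10 (AC3-/- b), 0.941 (wild-type a) and 0.855 (wild-type b), and a and b are not replicate numbers. On simulated data the same step gave 1 solution for 1130 and 1137 rows, each of them correct. Library values were tested with limma 3.58.1 (R 4.3.3, trend on), as log2 of the value with a pseudocount of 1, over 449 miRNAs whose mean reached 10. The pseudocount understates changes at low values. In 449 simulated miRNAs it called 186 of 200 changed 4-fold and 4 unchanged ones, at a dispersion of 0.1 throughout, while the measured spread was wider in wild type (SD of the log2 ratio between libraries 1.13, against 0.56 in AC3-/-). 947 of 1167 rows matched a RefSeq mature sequence (GRCm38.p6); introns and exons are those of protein-coding transcripts in GENCODE M21 (GRCm38). The labels' protocols describe no molecular identifiers, so the Clopper-Pearson intervals are of reads and not of molecules. They cover counting error only, while limma's intervals are built on the spread between libraries.

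The members, lists, marker miRNAs and tests were chosen with earlier results of these data known. The miRNAs named are the family, those with its seed, the 5 nearest in abundance to miR-26a-5p, the 5 nearest in pattern to each member with library values, and the REST list.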

Additional observations from a re-analysis of the deposited data

How the results depend on the processing

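No paired analysis was possible because the table has 1 column per genotype and the libraries worked back from it carry no replicate number. No miR-26 miRNA passed an adjusted p of 0.05 in any setting in which it was tested. The guides miR-26a-5p and miR-26b-5p were tested in the authors' comparison only and in none of the limma settings. With each column divided by its sum, the log2 ratio of the means turned from -0.17 to 0.33 for miR-26a-5p and from -0.043 to 0.45 for miR-26b-5p, and that of miR-26a-2-3p moved from 0.24 to 0.73. With the median of miRNAs with a mean of at least 100 set to 0, miR-26b-5p was at 0.056 and miR-26a-5p stayed below 0, at -0.070. With 1 library left out, which was added after seeing the data for the means, the log2 ratio ranged from -0.25 to 2.61 for miR-26a-1-3p, from 0.07 to 0.43 for miR-26a-2-3p, from -0.10 to 0.55 for miR-26b-3p and, over the wild-type libraries, from -0.36 to 0.36 for miR-26b-5p. miR-26a-1-3p and miR-26b-3p turned negative without wild-type library b, and miR-26b-5p turned positive without wild-type library a. The limma log2 difference ranged from 0.07 to 0.43 for miR-26a-2-3p and from -0.10 to 0.52 for miR-26b-3p, where the lone library left in a genotype is assumed to vary like the other pair. The cause of these changes was not tested. The family's share of the total was 9.19% in AC3-/- and 8.62% in wild type without the 10 most abundant other miRNAs, against 3.45% and 2.72%. limma called 0 miRNAs with all libraries and between 0 and 63 with 1 left out, 63 without wild-type library a and 2 without wild-type library b. The median of the intronic miRNAs was -0.14, and over the 165 with library values it was -0.12 with all libraries and -0.022 without wild-type library b, both added after seeing the data. Other pseudocounts, filters and scalings kept the direction in the remaining settings. Spread between libraries is unknown for miR-26a-5p, and for miR-26a-1-3p depth is the limit, with at most 8 reads per library.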
